A study of Sorghum bicolor with 5 samples.

Results

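The genes described here are the 100 with the lowest coefficient of variation (CV, the SD divided by the mean) of CPM over 5 leaf libraries of *Sorghum bicolor*. CPM is the count of a gene divided by the sum of the counts of all genes in the same library, times 1000000. The 100 genes were taken from the 9089 genes with a mean of at least 20 CPM, out of 35567 genes counted. The CPM of all 5 libraries therefore chose them, and their low CV is a description, not a finding. In RT-qPCR the level of a transcript is divided by that of 1 or more reference transcripts, which have to keep their level while other transcripts change. In plants these are commonly taken from genes for actin, tubulin, ubiquitin and ubiquitin-conjugating enzymes, elongation factors, cyclophilins and subunits of protein phosphatase 2A, chosen from housekeeping functions that every living cell needs.

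Young leaves of 5 plants were used, with 1 library per plant, from 2 epi-F3 lines in the Tx430 background at 4 weeks of age by the labels. The paper also gives a slightly younger age. Epi-F3 low (line 15, labelled as not enhanced, 3 plants) grew more slowly than epi-F3 high (line 68, labelled as enhanced, 2 plants). Both go back to Tx430 wild-type plants crossed with progeny that had lost an RNAi transgene against *MSH1*, whose protein is made from a nuclear gene and works in plastids and mitochondria. Tx430 carries the *dw3* dwarfing allele. All plants came from 1 greenhouse regime, with 28°C days of 14 h and 22°C nights, so each line stands for itself alone, in 1 tissue and 1 environment, and no wild-type library was analysed here. A further epi-F3 high plant that the paper describes was not analysed here.

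Genes held 48372266 to 68979436 counts per library, and 3.77 to 7.07% of counted reads lay in no gene. Scaling factors from TMM, a method that sets the bulk of the genes level between libraries, ran from 0.938 in epi-F3 low replicate 2 to 1.09 in epi-F3 high replicate 2. None of the 100 genes is paired with a name in the sources used here, so they are given by locus identifier. For the same reason the usual reference gene families and leaf marker genes could not be located among the counts, and neither was measured here.

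The 100 genes spanned a wide range of levels. Their mean ran from 20.3 to 1262 CPM, with a median of 57.1 CPM, and the median of all 9089 genes was 54.8 CPM. Their CV ran from 1.23 to 4.59%, with a median of 3.91%, while the median of all 9089 genes was 16.2% and the highest 204%. The 5 values of a gene, from its lowest to its highest library, spread over 3.15 to 12.4% of its mean. The farthest that any of the 500 values lay from the mean of its gene was 7.91%. CPM does not correct for gene length, so these levels do not rank the genes by number of transcripts. In whole leaves, fewer cells of a type and less RNA per cell cannot be told apart.

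**Figure D1:**
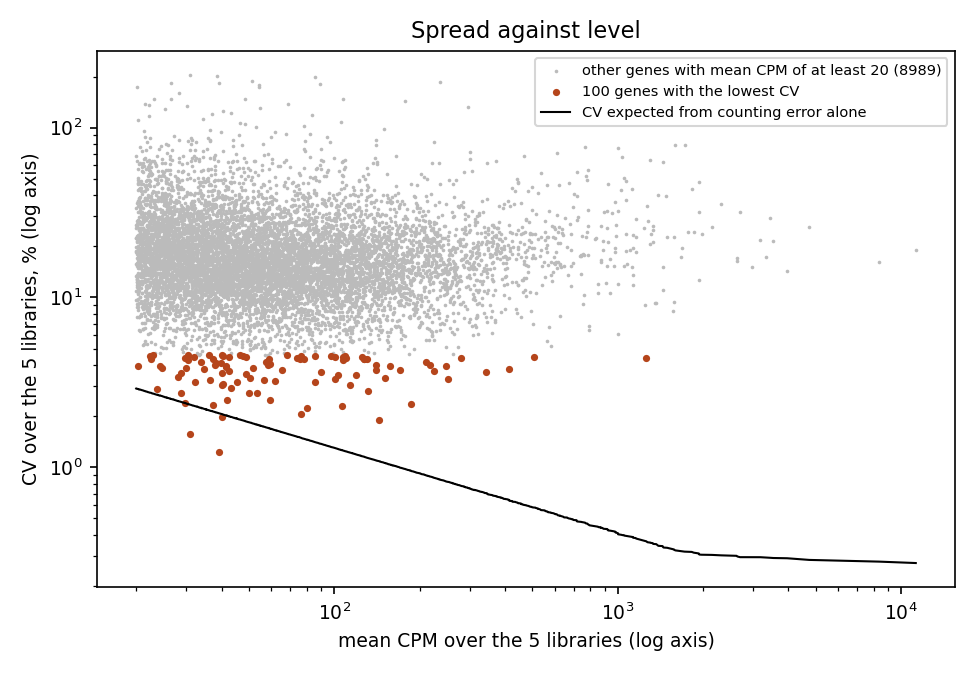
CV over the 5 libraries (%) against mean CPM, both on log axes, for the 100 genes with the lowest CV (red) and the other 8989 genes with a mean of at least 20 CPM (grey). The black line is the CV that counting error alone gives, and the 100 genes lie at or below 4.59%, most of them above that line.

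Members were found at every level above the minimum. Of the 4151 genes between 20 and 50 CPM, 45 were members (1.08%), and of the 2604 between 50 and 100 CPM, 23 were (0.883%). Between 100 and 200 CPM there were 22 of 1474 (1.49%), between 200 and 500 CPM 8 of 665 (1.20%), and above 500 CPM 2 of 195 (1.03%). The share was thus near 1 in 100 at low and high levels alike. Among the 100 most abundant genes of the leaf there was 1 member, and the median CV of those genes was 22.2%.

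The gene with the lowest CV was *SORBI_3004G059000*, on chromosome 4. It stood at 38.8, 38.6 and 39.8 CPM in epi-F3 low replicates 1, 2 and 3 and at 39.0 and 39.3 CPM in epi-F3 high replicates 1 and 2. The plants of the 2 lines overlapped, and the CV was 1.23% (mean 39.1 CPM, SD 0.481, n = 5). *SORBI_3002G134001* stood at 30.8, 31.5 and 31.3 CPM in epi-F3 low and at 30.6 and 30.3 CPM in epi-F3 high. Both epi-F3 high plants lay below every epi-F3 low plant (mean over the 5 plants 30.9 CPM, SD 0.487). *SORBI_3003G312200*, at a higher level, stood at 143, 149 and 143 CPM in epi-F3 low and at 141 and 144 CPM in epi-F3 high, with epi-F3 low replicate 2 the highest (SD 2.73). *SORBI_3003G396600* stood at 40.5, 39.7 and 38.9 CPM in epi-F3 low and at 39.8 and 41.0 CPM in epi-F3 high, with overlap between the lines (SD 0.787).

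The next genes were less even, though none left its mean by as much as 5%. *SORBI_3001G524000* stood at 74.9, 75.04 and 74.8 CPM in the 3 epi-F3 low plants, which are nearly alike, and at 77.3 and 78.1 CPM in the 2 epi-F3 high plants. Most of the spread in these values lay between the lines. Counting error alone gives this gene a CV of 1.49%, against the 2.05% seen, and the step was not tested. *SORBI_3009G030800* stood at 81.4, 81.8 and 77.6 CPM in epi-F3 low and at 78.6 and 79.5 CPM in epi-F3 high. Here the epi-F3 high plants lay between the epi-F3 low plants. *SORBI_3006G029800* stood at 107, 103 and 110 CPM in epi-F3 low and at 108 and 106 CPM in epi-F3 high. *SORBI_3010G000100*, the first locus number of chromosome 10, stood at 38.5, 36.9 and 36.4 CPM in epi-F3 low and at 36.8 and 37.9 CPM in epi-F3 high. In both, epi-F3 low held the highest and the lowest plant. *SORBI_3004G356900* had the highest level of the first 12 genes, at 183, 185 and 193 CPM in epi-F3 low and 189 and 183 CPM in epi-F3 high. *SORBI_3003G275300*, *SORBI_3003G202600* and *SORBI_3007G167900* complete these 12 genes, with CV of 2.40, 2.47 and 2.51% at means of 29.8, 41.8 and 59.2 CPM.

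**Figure D2:**
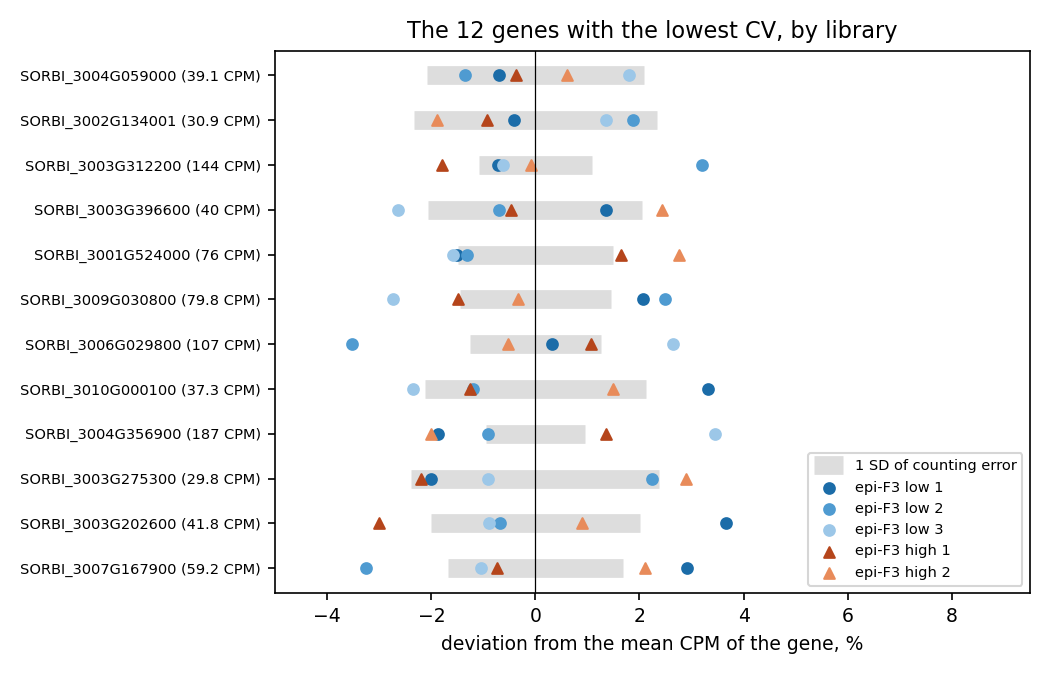
Deviation of each library from the mean CPM of the gene (%) for the 12 genes with the lowest CV, whose mean CPM stands beside the identifier. Circles are epi-F3 low and triangles epi-F3 high plants, and the grey bars show 1 SD of counting error, which holds all 5 plants of *SORBI_3004G059000* (CV 1.23%).

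The most abundant member was *SORBI_3001G252000*, in place 45 among all genes by mean CPM. It stood at 1264, 1326 and 1189 CPM in epi-F3 low and at 1227 and 1304 CPM in epi-F3 high, a CV of 4.404%, and it had the lowest CV of the 100 most abundant genes. *SORBI_3004G040900* stood at 511, 517 and 502 CPM in epi-F3 low and at 526 and 468 CPM in epi-F3 high, so that the 2 epi-F3 high plants were the highest and the lowest. *SORBI_3010G251100*, *SORBI_3010G076800* and *SORBI_3001G291800* followed, with means of 413, 344 and 279 CPM and CV of 3.80, 3.64 and 4.403%. At the other end, *SORBI_3001G039300* stood at 21.3, 19.4 and 19.8 CPM in epi-F3 low and at 21.0 and 20.2 CPM in epi-F3 high, from 1015 to 1466 counts per library. The other members of lowest level were *SORBI_3008G116500*, *SORBI_3003G005100*, *SORBI_3010G250000* and *SORBI_3007G132200*, at 22.4, 22.5, 23.0 and 23.7 CPM on average.

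The limit of 100 genes does not mark a step in CV. The last members were *SORBI_3008G165700* and *SORBI_3003G427100*, with CV of 4.57 and 4.59%. The first genes outside were *SORBI_3006G012400* and *SORBI_3007G020500*, with 4.599 and 4.6003%. There were 4 members with a CV below 2%, 18 below 3% and 59 below 4%, and 1455 of the 9089 genes had a CV below 10%.

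Counting error sets a limit to how low a CV can be measured. If the 5 plants had equal levels, counting error alone would give the members a CV of 0.366 to 2.88%, with a median of 1.72%. In 3 members, *SORBI_3004G059000*, *SORBI_3002G134001* and *SORBI_3003G396600*, the CV was at or below that value (2.08, 2.34 and 2.06%). On the scale of total counts, differences between their plants were therefore not detectable at this depth. No other gene of the 9089 had so low a CV for its counts. With TMM the CV of these 3 genes were 5.90, 7.42 and 4.39%, above counting error. With total counts, 19 members, these 3 included, had a CV less than 1.5 times the CV of counting error. Over all members the median ratio was 2.16, against 9.61 over the 9089 genes. For *SORBI_3001G252000*, with 59374 to 87214 counts per library, it was 12.04, so that its CV of 4.404% is almost all spread between libraries. When the part of counting error was taken off before the genes were ranked, 91 of the 100 genes were chosen again.

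All chromosomes held members. The chromosome number is part of the locus identifier, and the positions of the genes were not used here. Chromosome 1 held 19 of the 100 genes (95% Wilson interval 12.5 to 27.8%), where 19.1% of the 9089 genes lie. Chromosome 3 held 14 (14.6% of the 9089 genes), chromosome 10 held 12 (8.12%), chromosome 2 held 11 (12.6%) and chromosomes 4 and 6 each 10 (12.4 and 8.75%). Chromosome 7 held 9 (6.63%), and chromosomes 5, 8 and 9 each 5 (4.24, 5.16 and 8.26%). The share of all 9089 genes lay inside the Wilson interval of the members on every chromosome, and these intervals cover counting error only. The member with the lowest CV on chromosome 5 was *SORBI_3005G059600* (3.27%, mean 56.5 CPM) and on chromosome 8 *SORBI_3008G002300* (4.39%, mean 29.8 CPM). The lowest on the other chromosomes are among the first 12 genes.

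**Figure D3:**
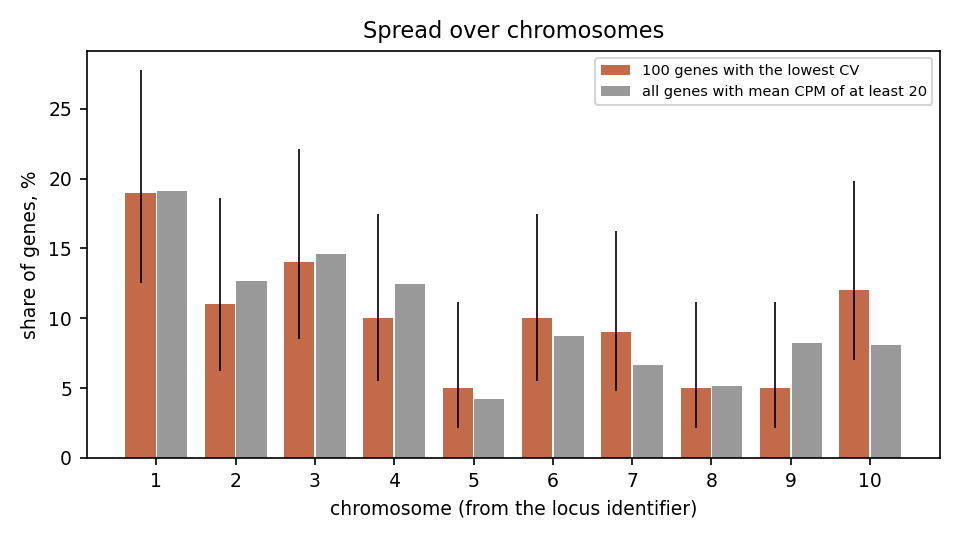
Share (%) of the 100 genes with the lowest CV (red, with 95% Wilson intervals) and of all genes with a mean of at least 20 CPM (grey) on each of the 10 chromosomes. The 2 shares lie close on chromosome 1 (19 and 19.1%) and farther apart on chromosome 10 (12 and 8.12%), within the interval.

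In the order of locus numbers, no 2 members were neighbours, and 3 pairs lay within 10 loci. The median distance to the next member on the same chromosome was 233.5 loci. These distances were not computed for other sets of genes, so they are a description only. The closest members were *SORBI_3001G039300* and *SORBI_3001G039700*, 4 loci apart, with means of 20.3 and 48.6 CPM. When each chromosome was divided into 5 equal parts by locus order, the parts held 25, 16, 18, 15 and 26 members from first to last. Of all genes with at least 20 CPM and a chromosome number, these parts held 20.4, 18.0, 18.6, 21.2 and 22.0%. No member was a non-coding feature of the ENSRNA series. The locus numbers of 98 members were multiples of 100, the step of the numbering, and 2 members, *SORBI_3002G134001* and *SORBI_3001G056601*, fell between those steps. Of the genes with at least 20 CPM 96.8% were multiples of 100, and of all genes on chromosomes 84.8%.

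The members together took 0.997, 1.01 and 0.974% of all counts in the epi-F3 low plants 1, 2 and 3 and 0.992 and 0.995% in epi-F3 high replicates 1 and 2. Epi-F3 low replicate 3 was the lowest plant for 35 members and the highest for 7, and the median member deviated by -2.21% from its mean there. In the other 4 libraries the median member lay between 0.0215 and 0.759% above its mean. Over all 9089 genes epi-F3 low replicate 3 was also most often the lowest, in 37.7% of genes, and the median gene there deviated by -9.24% from its mean. Epi-F3 high replicate 2 was the highest plant in 33.2% of all 9089 genes, and for 19 of the 100 members. Between 80 and 89 of the members lay within 5% of their mean in each library, against 19.4 to 32.6% of all 9089 genes. This contrast restates the choice.

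Between the lines, the members differed little, as the rule requires. On the CPM scale the log2 ratio of epi-F3 high to epi-F3 low ran from -0.11 for *SORBI_3003G016900* to 0.10 for *SORBI_3010G216300*, and 57 members were higher on average in epi-F3 high and 43 in epi-F3 low. The plants of the lines did not overlap in 15 members, 9 with epi-F3 high above and 6 below. Over the 9089 genes this was the case in 17.5%, with 13.2% above and 4.31% below. *SORBI_3003G016900* stood at 32.0, 31.5 and 30.3 CPM in epi-F3 low and at 29.1 and 28.9 CPM in epi-F3 high, without overlap. edgeR's quasi-likelihood test called 0 members between the lines, and 0.00433% of the 23098 genes tested. It called 1 gene in all, and 744 had an unadjusted p under 0.05. DESeq2 called 68 genes and limma-voom 0. The same values chose the members, so nothing is read from these counts. The paper, with a further epi-F3 high plant and an older edgeR, reports far more genes at the same thresholds. The reason for that difference was not tested.

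With TMM scaling in place of total counts, the same genes were less even, though still more so than most genes. The median log2 fold change of all 9089 genes was -0.03 with TMM and 0.08 with total counts, a shift of 0.11. This shift is larger than the highest log2 ratio of a member, so the log2 fold changes of all 100 lay below 0 with TMM, from -0.22 to -0.01, by the scaling itself. The median member deviated by 7.22% from its mean in epi-F3 low replicate 2 and by -8.15% in epi-F3 high replicate 2. The CV of the members with TMM ran from 2.20 to 9.90%, with a median of 6.71%, against 16.1% over all genes. After TMM, 88 of the 100 were among the 1000 genes of lowest CV, of the 9077 with at least 20 CPM on that scale. TMM divides the same libraries by factors of 0.938 to 1.09, so genes chosen for low CV had to stay more even than most. Their place after TMM therefore largely restates the choice and is not independent support. Of the 100 genes with the lowest CV after TMM, 14 are members, and 9 members were also among the 100 lowest with the size factors of DESeq2 (RLE).

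**Figure D4:**
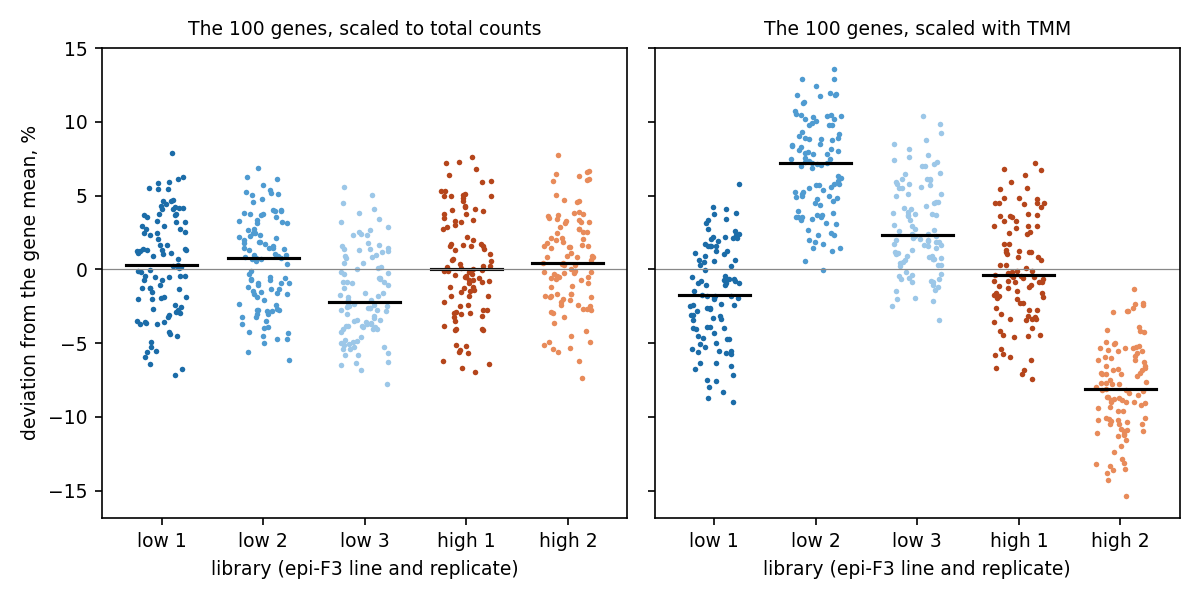
Deviation of each of the 100 genes from its own mean (%) in each library, with counts scaled to total counts (left) and with TMM (right), and the median as a black line. With total counts the medians lie between -2.21 and 0.759%, and with TMM between -8.15% in epi-F3 high replicate 2 and 7.22% in epi-F3 low replicate 2.

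*SORBI_3003G280300* had the lowest CV of the members after TMM. It stood at 78.3, 73.9 and 72.3 CPM in epi-F3 low and at 76.5 and 81.0 CPM in epi-F3 high, a CV of 4.51% with total counts and 2.20% with TMM. *SORBI_3004G249300* had 4.32 and 2.48%, and *SORBI_3010G228700* 3.61 and 2.697%. By contrast *SORBI_3004G059000*, the most even gene with total counts, had a CV of 5.90% with TMM. Which genes were the most even thus depended on the scale, and no spiked-in standard was used here to set one.

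Ratios between genes do not depend on the scale. Over all 4950 pairs of members, the SD of the log2 ratio over the 5 libraries had a median of 0.07, and the highest was 0.13. Each member was chosen with a CV of at most 4.59%, so these SD are low by the choice. Pairs of genes not chosen for low CV were not computed. The lowest was 0.0087, for *SORBI_3003G202600* and *SORBI_3006G263700*. The ratio of the former to the latter was 0.834, 0.843 and 0.832 in epi-F3 low and 0.837 and 0.829 in epi-F3 high. Counting error alone gives this pair an SD of 0.039, so this pair, the lowest of 4950, is closer than its counts can show. The 100 genes of lowest CV after TMM were slightly more even among themselves, with a median of 0.067 against 0.072 for the members. Both values are low by the choice. Each set was chosen to be flat on its own scale, so the ratio between the sets restates the difference between the scales. The ratio of their geometric means, divided by its mean over libraries, was 0.984, 1.06 and 1.03 in the 3 epi-F3 low plants and 1.00 and 0.925 in epi-F3 high replicates 1 and 2.

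The CV of a gene chosen for its CV is low in part because of that choice, so the choice was repeated on 4 libraries and the genes were looked up in the library left out. With the 4 remaining libraries the 100 lowest CV reached 3.00 to 3.72%. In the library left out, the same genes lay a median of 9.78, 8.73 and 14.0% from their mean over the other 4 for the epi-F3 low plants 1, 2 and 3. For epi-F3 high replicates 1 and 2 this was 10.5 and 13.0%. Over all genes with at least 20 CPM in the other 4 libraries, the median was 9.94, 12.2 and 15.7% in the epi-F3 low plants and 15.2 and 17.2% in the epi-F3 high plants. The chosen genes were therefore closer to their mean than the median gene in each of the 5 libraries, by 0.16 to 4.7 percentage points. The gap was smallest in epi-F3 low replicate 1. The choices share most libraries, so these are not 5 independent comparisons. The chosen genes were far less even than where they were chosen.

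In the library left out, 31 to 55 of the 100 chosen genes lay within 10% of their mean over the other 4, against 31.2 to 50.3% of all genes. Within 20% there were 62 to 89, against 56.3 to 80.6%. In epi-F3 low replicate 3 the 2 were nearly equal within 10%, at 31 genes and 31.2%. The same held in epi-F3 low replicate 1, at 52 genes and 50.3%. With its sign, the median deviation of the chosen genes was 5.22, 2.03 and -12.9% in epi-F3 low replicates 1, 2 and 3. That of all genes was 1.48, -2.86 and -11.7%. In epi-F3 high replicates 1 and 2 it was 6.61 and 8.47% for the chosen genes, and 1.10 and 3.13% for all genes. By this median the chosen genes shifted more than all genes in each library but epi-F3 low replicate 2. The farthest chosen gene was *SORBI_3010G026300*, chosen without epi-F3 high replicate 2 and 84.2% higher in that plant.

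**Figure D5:**
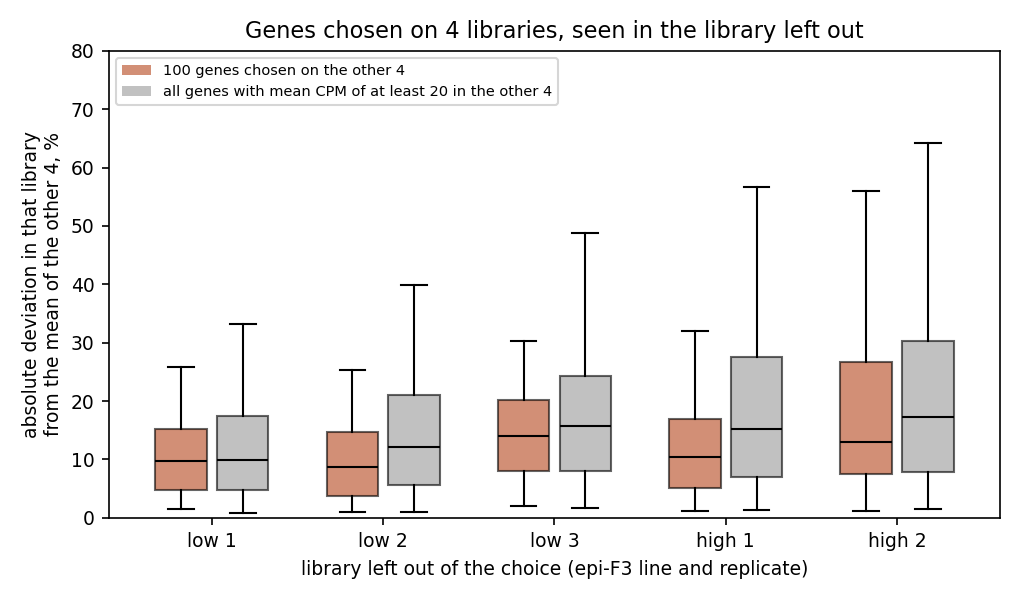
Absolute deviation (%) in the library left out from the mean of the other 4, for the 100 genes of lowest CV in those 4 (red) and all genes with at least 20 CPM in them (grey). Boxes show the median and quartiles and whiskers the 5th and 95th percentiles, and the medians of the chosen genes lie between 8.73 and 14.0%.

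Each choice on 4 libraries held 28 to 47 of the 100 genes, the fewest without epi-F3 low replicate 3. In all 5 of these choices 16 members came back, among them the 12 with the lowest CV, while 14 members came back in none and 38 in 1. These choices share most libraries with the full choice, so a return is not independent support. Their highest CV were 3.00 to 3.72%, and leaving out 1 of 5 values can raise a CV only a little. The members of lowest CV therefore had to come back. Choosing on the 3 epi-F3 low plants alone gave 100 genes with a CV of at most 1.68%, of which 13 are members. In epi-F3 high replicates 1 and 2 these genes lay a median of 11.99 and 14.0% from their epi-F3 low mean, against 14.2 and 16.7% of all 8807 genes with at least 20 CPM in epi-F3 low.

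As reference genes for young sorghum leaves, the 100 genes are thus candidates of known level and of spread measured in 5 greenhouse plants only. Of the 14 members that were also chosen after TMM, *SORBI_3007G167900* (mean 59.2 CPM) and *SORBI_3003G246000* (mean 28.9 CPM) were chosen in all 5 sets of 4 libraries as well. Neither was among the 100 lowest with RLE size factors. Another 9 members were among the 100 lowest with total counts, TMM and RLE alike. Those 9 were chosen in 0 to 2 of the sets of 4 libraries. TMM, RLE and the sets of 4 reuse the libraries that chose the members, so no such return is independent support. *SORBI_3007G167900* stood at 61.0, 57.3 and 58.6 CPM in epi-F3 low and at 58.8 and 60.5 CPM in epi-F3 high, and its CV was 2.51% with total counts, 4.10% with TMM and 4.92% with RLE. *SORBI_3003G246000* stood at 29.2, 28.7 and 27.8 CPM in epi-F3 low and at 28.8 and 30.0 CPM in epi-F3 high, with CV of 2.72% with total counts and 3.88% with TMM. In both genes the lines overlapped. Other tissues, ages, treatments and genotypes were not analysed here.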

How the data were processed

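The authors trimmed reads with Trim Galore 0.4.1, aligned them with STAR 2.7.3a (NCBIv3 assembly of *Sorghum bicolor*) and passed reads with a single alignment to QoRTs, which gave a count for each gene. The deposited files hold raw counts per gene. Their 5 summary lines were left out of totals and tests. The strand setting is not given in the sources used here, so overlapping genes on opposite strands, and close copies that share reads, are uncertain.

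The CV was computed from CPM over the 5 libraries, and the CV of counting error from Poisson counts. Lines were compared with edgeR 4.0.16 (R 4.3.3), TMM and its quasi-likelihood test. Genes entered with 10 or more counts summed over libraries, and were called where the Benjamini-Hochberg adjusted p was 0.1 or less with a log2 fold change of 0.5 or more in either direction. limma 3.58.1 and DESeq2 1.42.0 were alternatives. Nothing was tested on the members. Both steps were also run on simulated data, in which total counts alone set the scale of each library. Those runs therefore say nothing about the choice of scaling. The members and lists were chosen with earlier results of these data known.

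Genes named are the 12 of lowest CV, the 5 highest and 5 lowest in level, the lowest CV on each chromosome and those at the limit of 100. Genes named for the closest pair or neighbours, the line ratio, locus number, TMM scaling, return or the farthest deviation were chosen after their values were seen. Gene classes, reference families and leaf markers had been planned by product description and were not run, since 0 identifiers matched the gene table. Spread between plants cannot be told from technical spread, as each plant has 1 library.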

Additional observations from a re-analysis of the deposited data

How the results depend on the processing

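Of the 100 genes, 92 were chosen again with a minimum of 10 CPM, 97 by the SD of log2(CPM + 1), 91 after counting error was taken off and 88 by the range, but 55 with a minimum of 50 CPM, which 45 members do not reach, 14 with TMM and 9 with RLE size factors. Without 1 library 28 to 47 were chosen again, and 13 when the choice, added after seeing the data, used the epi-F3 low plants alone. The median CV was 3.91%, and 6.71% with TMM and 7.46% with RLE. It was 3.58 to 3.83% without 1 library. Of the CV of 26 named members, 16 moved by more than their own size with TMM and 17 with RLE. Without 1 library none did, but this measure could not have shown otherwise. Leaving out 1 value can raise a CV only a little, and a fall cannot exceed the CV itself. Nothing is therefore read from that count. The 1 gene called between the lines became 68 with DESeq2, 0 with limma-voom, 47 with edgeR's exact test, 12 without a filter and 0 with filterByExpr. Leaving out 1 library gave 0 to 80 calls, with 0 without epi-F3 low replicate 2 or 3. The highest counts came without epi-F3 high replicate 1 (80) or 2 (27), where 1 plant of that line is left and is assumed to vary like the others. Scaling to the 100 members or to total counts, both added after seeing the data, gave 1. With a replicate block by replicate number 7 genes were called and by plant number 70. Deviations from the line means correlated at 0.025 for plants numbered 1 and 0.39 for those numbered 3. With 2 epi-F3 high plants these mirror each other, so they do not show whether the numbers pair the plants. Depth limits the CV most at low levels, where counting error alone gives up to 2.88%.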
